A study of Arabidopsis thaliana with 26 samples.

Results

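PWD, DPE1, SBE2.2 and APL3 are 4 Arabidopsis thaliana genes for enzymes that build or take apart leaf starch, and their transcript levels were followed in leaves of accession Col-0. They were taken by name, but with earlier results of these data known. PWD is AT5G26570, DPE1 is AT5G64860, SBE2.2 is AT5G03650 and APL3 is AT4G39210. Each was read by 1 probe set, so they are 4 of the 13286 genes with a probe set of their own in the annotation used here, on an array of 22810 probe sets. All 4 passed the filter on dim signals described below. A second probe set carries the symbol PWD, but its gene is AT4G24450, listed as GWD2 in the gene table, and it is kept apart from PWD here.

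The 26 ATH1 arrays were made from total RNA with a biotin label, and all came from the treatment whose title gives elevated CO2 with ambient light. Mature leaves were taken at 24 h (2 arrays), and developing leaves of insertions 19 to 21 at 2, 4, 12, 24, 48 and 96 h (4 arrays each). All plants grew in compost at 20 °C, 50% humidity and 10 h of light per day. The labels record the growth room atmosphere as normal and do not say which leaves met the raised CO2. Every array carries the treatment, so no comparison below is with an untreated group at ambient CO2. Mature and developing leaves may have differed in their own exposure, and leaf age and exposure cannot be told apart between them. The replicate numbers do not say whether samples came from separate plants, and p-values then cover only the spread among arrays of a group, part or all of which may be technical. The labels give no clock time. Harvests at 24, 48 and 96 h are whole days apart, but those at 2, 4 and 12 h fell at other times of day, and clock time and duration of treatment cannot be told apart there.

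Leaf starch is made in the chloroplast by day and broken down at night. ADP-glucose pyrophosphorylase, of which APL3 is a large subunit, makes the sugar nucleotide from which glucan chains are extended, and branching enzymes such as SBE2.2 introduce the branch points of amylopectin. Breakdown begins with phosphorylation of the granule surface by glucan, water dikinase and then by PWD (phosphoglucan, water dikinase), which opens the granule to amylases. DPE1, the plastid disproportionating enzyme, acts on the maltotriose that beta-amylases leave behind, and several genes of the breakdown route are known in Arabidopsis for a daily rhythm of their transcripts.

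Signals are given in the deposited linear units, scaled per array, with mean ± SD. Changes are log2 values ± SE on the log2(signal + 16) scale, which understates changes of dim probe sets. Called means an adjusted p (limma, Benjamini-Hochberg over 16154 probe sets) under 0.05. The 2 green leaf markers with a probe set here (of 12 listed), RCA and LHCB4.2, averaged at or above the 95.4th percentile of their arrays in every group. Pairs of replicates had r = 0.956 to 0.987 over the probe sets, which are not independent of each other. The first replicates of the 24 h and 48 h developing leaves stood apart, with a mean cre spike-in signal of 4874 and 4858 (median of all arrays 1612) and a 25S ribosomal RNA signal of 4449 and 1571 (median 67.7). The 25S signal was also 1536 on the first 96 h replicate, and in developing leaves the first replicate had the highest 25S signal at each of the 6 times. For the main changes that use the 2 high spike-in arrays, the value without both is given as well.

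PWD was highest at 12 h and lower at every other time. In developing leaves at 2 h its signal was 139, 168, 131 and 155. At 4 h it was 347, 270.4, 237 and 259, and at 12 h it was 412, 424, 430.4 and 369.6. The arrays of these 3 times did not overlap, each later time lying wholly above the one before. At 24 h PWD had returned to 139, 149, 139 and 141, within the range seen at 2 h. The 48 h arrays read 111, 138, 127 and 152, and the 96 h arrays 128, 121, 145 and 127. The 3 samplings that lie whole days apart thus overlapped one another.

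At 4 h versus 2 h PWD averaged 278 ± 47.7 at 4 h and 148 ± 16.3 at 2 h, a rise of 0.84 ± 0.10 (adjusted p = 4.8e-06). At 12 h versus 4 h it rose again, by 0.54 ± 0.10 (adjusted p = 0.00016), to 409 ± 27.3. The 24 h mean of 142 ± 4.69 was lower than the 12 h mean by a log2 change of -1.43 ± 0.10 (adjusted p = 1.0e-11), and by -1.42 ± 0.11 without the 2 high spike-in arrays. Among 16154 probe sets, PWD had the 123rd smallest p of the F test over the 6 times (adjusted p = 3.5e-13) and ranked 537 by the width of its range of means. Below its 12 h and 4 h means, no neighbouring groups in the order of PWD levels (2 h, 24 h, 48 h, 96 h and mature leaves) were called apart. The ends of this order were: mature leaves lay below 2 h by a log2 change of -0.32 ± 0.12 (adjusted p = 0.031). That comparison called 4111 of 16154 probe sets higher and 5295 lower. The 48 h versus 24 h difference of PWD was -0.10 with a 95% interval from -0.31 to 0.11, and -0.04 without the 2 arrays.

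DPE1 shared the early rise but ended below its starting level. Its signal at 2 h was 106, 105, 87.4 and 95.6. The 4 h arrays read 204, 172, 158 and 171, and the 12 h arrays 233, 192, 175 and 218. Both times lay above all 2 h arrays and overlapped each other. At 24 h DPE1 read 55.8, 42.4, 57.3 and 65.0, less than on any 2 h array. The arrays read 41.6, 56.3, 56.4 and 47.3 at 48 h, the first of them just below the 24 h range, and 51.3, 48.8, 49.1 and 50.2 at 96 h. These 3 late groups overlapped one another, and none overlapped the 2 h group.

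DPE1 averaged 176 ± 19.6 at 4 h and 98.6 ± 8.88 at 2 h (0.75 ± 0.11; adjusted p = 6.1e-05). Its 12 h versus 4 h difference of 0.20 ± 0.11 was not called (adjusted p = 0.19), with a 95% interval from -0.02 to 0.41. The drop of DPE1 at 24 h versus 12 h, to 55.1 ± 9.42 against 205 ± 25.7, was the largest of its steps between neighbouring times, at -1.64 ± 0.11 (adjusted p = 1.8e-12). At 24 h it was also lower than at 2 h, by a log2 change of -0.70 ± 0.11 (adjusted p = 6.7e-05). Without the 2 high spike-in arrays these changes were -1.64 and -0.70. DPE1 had the 66th smallest p of the F test over times (adjusted p = 1.3e-14), and its highest mean in developing leaves was 4.11 times its lowest, against 3.14 times for PWD. At 96 h versus 2 h DPE1 differed by -0.80 ± 0.11 (adjusted p = 1.6e-06), whereas PWD differed by -0.16 ± 0.10 (adjusted p = 0.24).

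**Figure D1:**
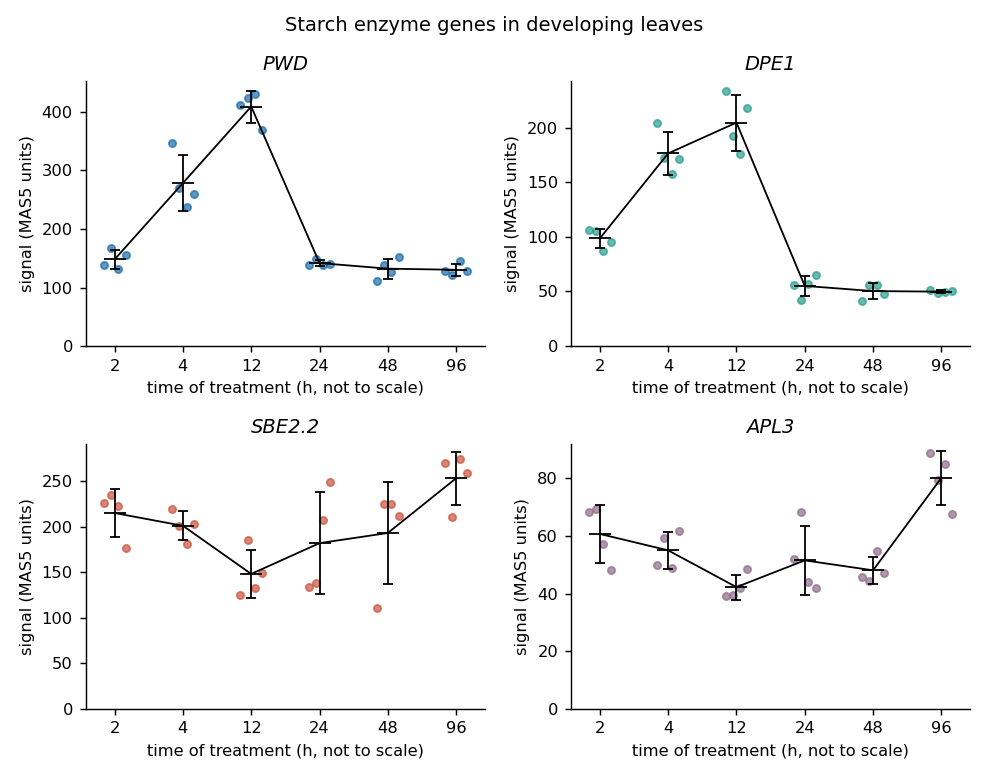
Signal of each starch enzyme gene (vertical axes from 0, MAS5 units) in developing leaves at 6 times (horizontal axes, hours, not to scale); dots are the 4 arrays of each time, bars the mean ± SD. PWD and DPE1 peak at 12 h with means of 409 and 205, the time at which SBE2.2 and APL3 have their lowest means of 148 and 42.3, and APL3 is highest at 96 h.

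Whether PWD and DPE1 changed unequally was examined within arrays, as the log2 difference PWD minus DPE1, by an exact permutation test (two-sided; a test chosen after the values were seen). The difference averaged 0.95 at 12 h and 0.60 at 4 h, and the 2 groups did not overlap (exact p = 0.029). At 24 h it averaged 1.16, against 0.52 at 2 h, again without overlap (exact p = 0.029). At 12 h versus 2 h the exact p was also 0.029, the smallest that 4 against 4 arrays can give. Over the 18 such tests made on this pair and on APL3 and SBE2.2, the adjusted p was 0.17 for these 3, and no test passed the threshold. With 3 of 18 tests at the smallest p possible, adjustment could not bring them under the threshold. The tests therefore cannot decide whether PWD and DPE1 changed equally. The tests treat the arrays as unpaired.

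Array quality also moved with time. The ratio of the 3' to the 5' actin control was 2.91 to 3.70 on the 12 h arrays, 5.81 to 7.94 on the 4 h arrays and 5.58 to 7.01 on the 2 h arrays, and its part in the 12 h results was not tested. The corresponding GAPDH ratio overlapped between these times, at 1.04 to 1.60, 1.21 to 1.69 and 1.19 to 1.54. The summed signal of RCA and LHCB4.2 was also lower at 12 h, from 2742 to 3186, against 4537 to 5385 at 4 h and 4583 to 6275 at 2 h. The 2 genes differed: at 12 h versus 2 h LHCB4.2 was lower (-1.97 ± 0.17; adjusted p = 1.1e-09), whereas RCA was not called (-0.29 ± 0.17; adjusted p = 0.23). The part of these markers in the 12 h results was not tested either.

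Markers of dividing cells and of senescence moved at these times too, and not all one way. At 4 h versus 2 h, with the rise of PWD and DPE1, the mitotic kinase genes AUR1 and AUR2 were higher by 0.50 ± 0.13 (adjusted p = 0.029) and 0.69 ± 0.10 (adjusted p = 9.4e-05). The replication gene MCM7 (-0.35 ± 0.13; adjusted p = 0.25) and SPCH (0.06 ± 0.17) were not called there. The 4 markers summed to 664 to 737 at 4 h and 594 to 690 at 2 h. Between 12 h and 2 h AUR1 and AUR2 were higher at 12 h by 0.45 ± 0.13 (adjusted p = 0.0073) and 0.54 ± 0.10 (adjusted p = 0.00015), and MCM7 was lower at -0.86 ± 0.13 (adjusted p = 9.1e-06). The sum was 460.4 to 673 at 12 h, overlapping that at 2 h. WRKY53 was higher at 12 h versus 2 h by 0.47 ± 0.15 (adjusted p = 0.021), while the other senescence marker, SAG101, was not called (0.29 ± 0.13; adjusted p = 0.083). The senescence markers summed to 46.3 to 65.6 at 12 h and 31.4 to 38.4 at 2 h. Both were dim at these times, averaging between the 27.5th and 38.8th percentile of their arrays. The part of these markers in the changes of the starch genes was not tested.

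SBE2.2, the branching enzyme, ran the other way with a smaller and noisier course. It read 226, 235, 223 and 177 at 2 h, then 219.6, 200.5, 181 and 203 at 4 h. At 12 h the arrays read 125, 185, 133 and 149. The 12 h group overlapped both earlier groups through its second replicate. The 24 h arrays split widely, at 134, 138, 207 and 249. So did the 48 h arrays, at 110.2, 225, 225 and 212, where the low value belongs to the array with a high spike-in signal. At 96 h SBE2.2 read 269, 210.3, 274 and 259, wholly above the 12 h arrays.

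The SBE2.2 mean was 148 ± 26.6 at 12 h and 215 ± 26.0 at 2 h, a difference of -0.50 ± 0.18 that passed the threshold (adjusted p = 0.034). The call depended on single arrays: dropping 2 h replicate 1, 2 or 3 or 12 h replicate 1, 3 or 4 ended it (adjusted p up to 0.10). The 12 h versus 4 h difference of -0.41 ± 0.18 was not called (adjusted p = 0.081), and was called without the 2 high spike-in arrays (adjusted p = 0.017). The F test over times passed the threshold for SBE2.2 (adjusted p = 0.022), as it did for 50.0% of all probe sets tested, and did not pass without 12 h replicate 1 or 3 or 96 h replicate 1 or 3 (adjusted p up to 0.065). Only the ends of its developing range were clearly separate: the 96 h mean of 253 ± 29.3 exceeded the 12 h mean by 0.72 ± 0.18 (adjusted p = 0.002). In the order of levels in developing leaves, which ran 96 h, 2 h, 4 h, 48 h, 24 h and 12 h from high to low, no 2 neighbours were called apart. Its 48 h versus 24 h difference of 0.07 ± 0.18 was 0.18 ± 0.15 without the 2 arrays, uncalled both times.

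The late SBE2.2 differences between whole days did not pass the threshold. The 96 h versus 24 h difference was 0.48 ± 0.18 (adjusted p = 0.066), and 0.36 ± 0.14 without the 2 high spike-in arrays (adjusted p = 0.086). At 96 h versus 48 h it was 0.41 ± 0.18 (adjusted p = 0.20) and 0.18 ± 0.14 without them.

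APL3, the large subunit of ADP-glucose pyrophosphorylase, was lowest at 12 h and highest at 96 h among the developing groups. It read 68.2, 69.4, 57.1 and 48.2 at 2 h, and 50.0, 59.4, 48.9 and 61.8 at 4 h. The 12 h arrays read 39.1, 39.5, 42.0 and 48.5. All 12 h arrays lay below all 4 h arrays, while the highest of them lay just above the lowest at 2 h. At 24 h APL3 read 51.9, 68.5, 43.9 and 42.0, and at 48 h it read 45.9, 44.5, 54.9 and 47.1. The 96 h arrays, at 88.7, 79.3, 85.2 and 67.5, lay above all 48 h arrays, and overlapped the 24 h group through 1 array on each side.

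The 12 h mean of APL3 was 42.3 ± 4.34 and its 2 h mean 60.7 ± 10.0, a fall of 0.39 ± 0.12 on the log2 scale (adjusted p = 0.013). Without developing 2 h replicate 2 the call was lost (adjusted p = 0.053). At 12 h versus 4 h the difference of -0.28 ± 0.12 was not called (adjusted p = 0.071), although the groups did not overlap. By 96 h APL3 had risen to 80.2 ± 9.29, against 48.1 ± 4.66 at 48 h (0.58 ± 0.12; adjusted p = 0.0046) and 51.6 ± 12.1 at 24 h (0.52 ± 0.12; adjusted p = 0.0032). Without the 2 high spike-in arrays these rises were 0.57 ± 0.13 and 0.53 ± 0.13, both called. At 96 h versus 2 h the rise of APL3 was 0.33 ± 0.12 (adjusted p = 0.031). Its remaining neighbours in the order of levels (2 h, 4 h, 24 h, 48 h and 12 h) were not called apart.

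Markers of other tissues moved in the 96 h samples too. The 4 dividing-cell markers, all with a probe set here, summed to 306 to 430.2 at 96 h and to 587 to 654 at 24 h. The phloem marker SWEET11 (1 of 3 listed) read 144 to 186 and 86.6 to 138 at these times, and the trichome marker TRY (1 of 3) 70.4 to 121 and 50.3 to 66.5. The senescence markers WRKY53 and SAG101 summed to 43.1 to 75.3 at 96 h and 31.2 to 45.5 at 24 h, with overlap. The part of all these markers in the rise of APL3 was not tested. In whole leaves fewer cells of a type and less RNA per cell cannot be told apart.

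**Figure D2:**
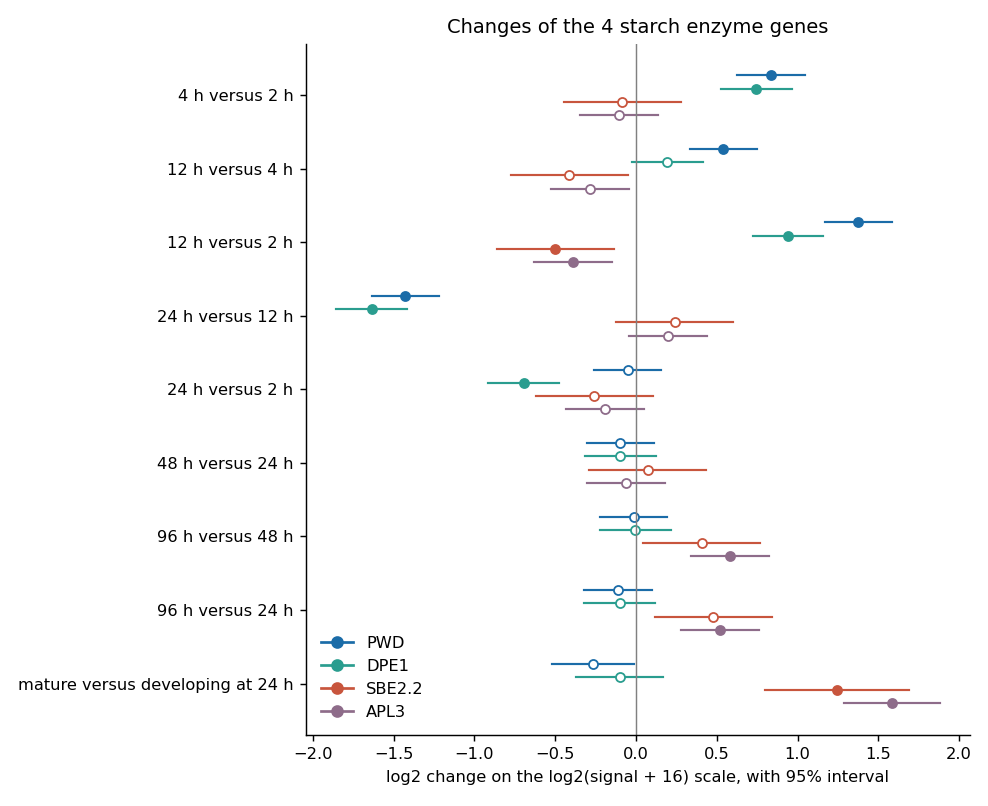
Log2 change of PWD, DPE1, SBE2.2 and APL3 (horizontal axis, log2(signal + 16) scale) in 9 comparisons (vertical axis, later or mature group over the earlier or developing one); points are estimates, lines 95% intervals, and filled points have an adjusted p under 0.05. PWD and DPE1 are filled and positive at 12 h versus 2 h while SBE2.2 and APL3 are filled and negative there. In mature leaves SBE2.2 and APL3 are filled at 1.24 and 1.58, and PWD and DPE1 are not filled, at -0.26 and -0.10.

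Read side by side, the breakdown and synthesis genes differed in direction at 12 h versus 2 h: PWD and DPE1 rose by 1.38 ± 0.10 and 0.94 ± 0.11, and SBE2.2 and APL3 were lower as given above. In that comparison 28.6% of all probe sets were called, 15.1% higher and 13.5% lower, so a call on its own was common. At 4 h versus 2 h, in contrast, 2 of the 4 genes were higher and 0 lower, while 2.04% of all probe sets were called, 1.36% higher and 0.681% lower. At 12 h versus 4 h 1 of the 4 was called, against 28.6% of all (15.8% higher, 12.8% lower). At 24 h versus 12 h 2 of the 4 were lower, against 29.3% of all called (13.0% higher, 16.2% lower). At 24 h versus 2 h 1 was lower, against 9.21% of all called (4.33% higher, 4.88% lower). APL3 was the 1 gene called at 96 h versus 48 h, where 3.53% of all were (2.21% higher, 1.32% lower), and at 96 h versus 24 h, where 15.0% were (7.74% higher, 7.23% lower). The background was 32.3% at 96 h versus 2 h, where DPE1 was lower and APL3 higher, and 34.9% at 96 h versus 12 h. At 48 h versus 24 h none of the 4 was called, and limma called 0 of 16154 probe sets (0.0%) there, with 1655 at an unadjusted p under 0.05. Several of these comparisons share the 2 h, 12 h or 24 h arrays. The 4 genes were chosen with earlier results of these data known, so their calls beside these shares are a description.

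Of the 4 genes, APL3 and SBE2.2 were called higher in mature than in developing leaves at 24 h. APL3 read 174 and 196 in mature leaves, against 51.9, 68.5, 43.9 and 42.0 in developing leaves. Both mature arrays lay above every developing array of any time, and the mean was 3.58 times that of developing leaves at 24 h (1.58 ± 0.14; adjusted p = 3.8e-10). SBE2.2 read 415 and 464 in mature leaves, against 134, 138, 207 and 249 in developing leaves, again with no overlap (2.42 times; 1.24 ± 0.22; adjusted p = 1.9e-05). Without developing 24 h replicate 1 and the 48 h array these changes were 1.59 ± 0.15 and 1.12 ± 0.17. Against the highest developing group, that at 96 h, APL3 was still higher by 1.06 ± 0.14 (adjusted p = 7.8e-07) and SBE2.2 by 0.76 ± 0.22 (adjusted p = 0.005), in a comparison that called 43.4% of all probe sets.

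Neither PWD nor DPE1 was called in mature versus developing leaves at 24 h. PWD read 114 and 116 in mature leaves, against 139, 149, 139 and 141 in developing leaves; the groups did not overlap, and the difference was -0.26 ± 0.12 (adjusted p = 0.073), or -0.27 ± 0.13 without the 2 high spike-in arrays (adjusted p = 0.067). DPE1 read 48.6 and 51.2 in mature leaves, against 55.8, 42.4, 57.3 and 65.0 in developing leaves, a difference of -0.10 with a 95% interval from -0.37 to 0.17, and -0.09 ± 0.13 without the 2 arrays. In this comparison 54.8% of all probe sets were called, 24.1% higher and 30.7% lower, and the median change of all probe sets was -0.10. Both n = 2 for mature leaves and this wide background limit what the 2 calls say about starch genes. The 3' to 5' actin ratio was 3.09 to 3.32 on the mature arrays and 3.45 to 5.95 on the 24 h developing arrays. The GAPDH ratio was 0.94 to 1.03 and 0.98 to 1.92, and the part of array quality was not tested.

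Transcripts of cell type and senescence markers differed between these samples as well. The 4 dividing-cell markers summed to 94.6 and 107 in mature leaves, against 587 to 654 in developing leaves at 24 h. SPCH, which starts the stomatal lineage, was near 0 in mature leaves at 3.67 ± 1.03, against 120.2 ± 25.9. SWEET11 read 611 and 641 in mature leaves, against 86.6 to 138, and the senescence markers WRKY53 and SAG101 (2 of 3 listed) summed to 139 and 178, against 31.2 to 45.5. The guard cell marker FAMA (1 of 3) read 33.9 and 37.5 in mature leaves, against 52.4 to 67.2, the trichome marker TRY 105 and 148, against 50.3 to 66.5, and the root marker PYK10 (1 of 3) 4.58 and 10.47, against 12.9 to 20.7. All of these PYK10 values lay under 24.3, the lowest 40th percentile of any array. The part of the markers in the rise of APL3 and SBE2.2 was not tested. In whole leaves, cell number and RNA per cell cannot be told apart.

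**Figure D3:**
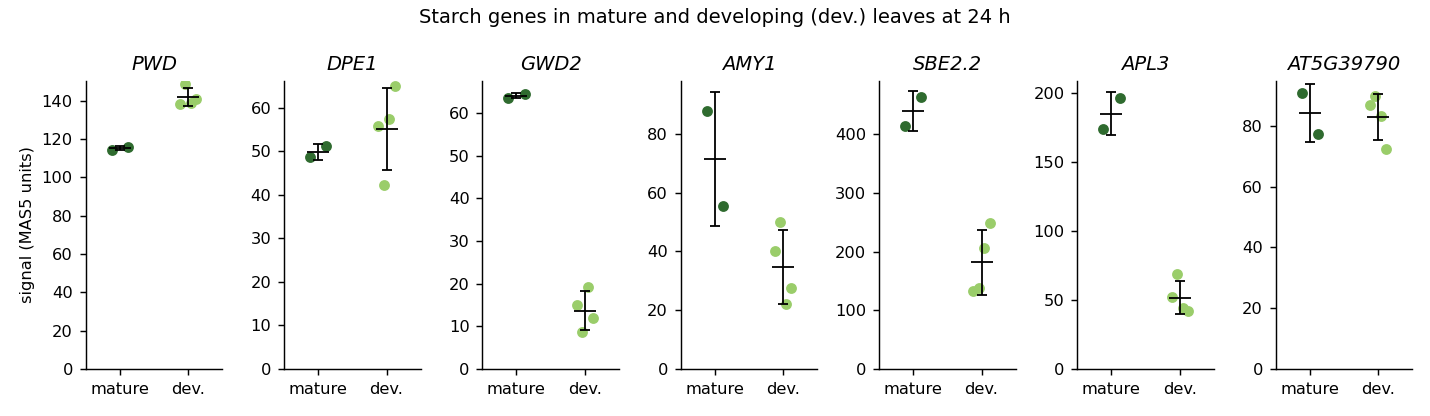
Signal (vertical axes from 0, MAS5 units) of 7 starch genes in mature leaves (left, 2 arrays) and developing leaves (right, 4 arrays) at 24 h; dots are arrays and bars the mean ± SD. SBE2.2, APL3 and AMY1 were called higher in mature leaves, AMY1 only with mature replicate 1 included, and PWD, DPE1 and AT5G39790 were not called. The comparison called 54.8% of all probe sets (24.1% higher, 30.7% lower). GWD2 passed the filter through its mature arrays and is shown without a test.

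Of a list of 47 starch genes, 8 had a probe set of a single gene here: the 4 above, the dikinase homologue GWD2 (AT4G24450), the alpha-amylase AMY1, the pyrophosphorylase subunit APL4 and AT5G39790, which the list holds among synthesis genes and the gene table gives by its locus code alone. APL4 did not pass the filter on dim signals, with means from 5.94 in mature leaves to 18.8 at 4 h. GWD2 passed it through its 2 mature arrays, since 1 of its 24 developing arrays lay above the 40th percentile, and its values are given below without a test. At 12 h versus 2 h, of the other 6 genes tested, PWD and DPE1 were called higher, APL3, SBE2.2 and AT5G39790 lower and AMY1 neither, beside 28.6% of all probe sets called (15.1% higher, 13.5% lower). The calls of SBE2.2 and APL3 each end without single arrays (adjusted p up to 0.10 and of 0.053), as given above.

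AT5G39790 had a course of its own. Its signal was 122, 115, 118 and 136 at 2 h and 153, 137, 129 and 138 at 4 h. At 12 h it was 66.4, 68.0, 53.6 and 50.7, below every earlier array. The 12 h versus 4 h change was -1.04 ± 0.09 (adjusted p = 2.1e-09), in the step in which PWD rose. At 24 h versus 12 h it rose by 0.39 ± 0.09 (adjusted p = 0.002; 0.37 ± 0.10 without the 2 high spike-in arrays), while its 24 h mean of 83.1 ± 7.54 was below its 2 h mean of 123 ± 9.28 (-0.48 ± 0.09; adjusted p = 0.00093; -0.50 ± 0.10 without the 2 arrays). Mature and developing leaves at 24 h did not differ beyond their spread in it (84.3 ± 9.51 and 83.1 ± 7.54).

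**Figure D4:**
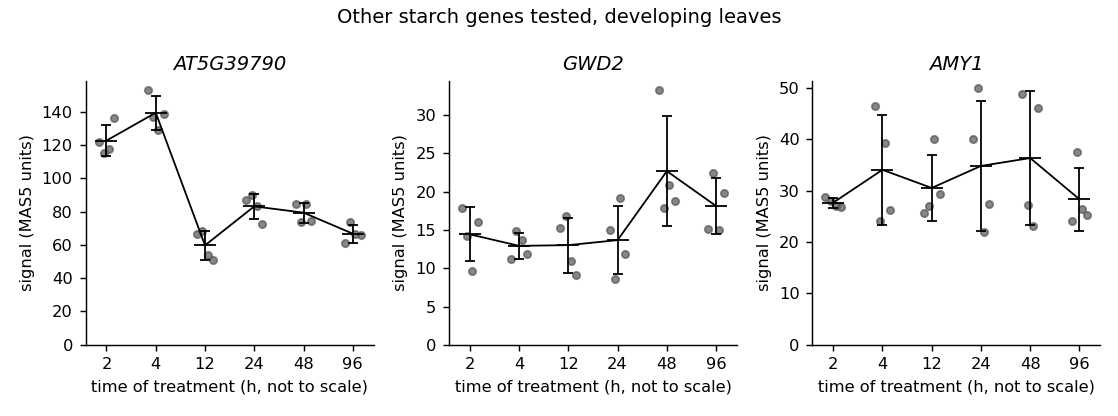
Signal (vertical axes from 0, MAS5 units) of AT5G39790, GWD2 and AMY1 in developing leaves at 6 times (horizontal axes, hours, not to scale). Dots are the 4 arrays of each time and bars the mean ± SD. GWD2 passed the filter through its mature arrays and is shown without a test. AT5G39790 drops to a mean of 59.7 at 12 h, while GWD2 and AMY1 stay between means of 12.9 and 36.4 at all times.

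GWD2 and AMY1 were dim in developing leaves. GWD2 read 63.6 and 64.5 in mature leaves, against 8.61 to 19.1 in developing leaves at 24 h. All of these developing values lay under 24.3, the lowest 40th percentile of any array, so no fold or test is given. AMY1 read 87.7 and 55.5 in mature leaves, against 22.0 to 50.0 in developing leaves (0.79 ± 0.22; adjusted p = 0.0035), or 0.85 ± 0.23 without the 2 high spike-in arrays. The call of AMY1 was lost without mature replicate 1 (0.53; adjusted p = 0.13), in a comparison that called 54.8% of all probe sets. Over the 6 times in developing leaves AMY1 did not pass the F test (adjusted p = 0.77). APL4 averaged 5.94 in mature leaves and 11.6 in developing leaves at 24 h, both dim.

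The genes most like each starch gene were taken as the 3 named probe sets with the highest Pearson r over the 26 arrays, a description without a test, since arrays of a group share their time. For PWD these were AT3G15630 (r = 0.97), AT4G16146 (r = 0.96) and AT5G24490 (r = 0.94). AT3G15630 averaged 55.0, 140 and 357 at 2, 4 and 12 h and 52.7 at 24 h, which is a steeper version of the course of PWD. For DPE1 they were FTSZ2-1, a chloroplast division protein (r = 0.96), AT4G30650 (r = 0.95) and the LIM-domain gene WLIM2a (r = 0.95). WLIM2a averaged 169, 263 and 245 at 2, 4 and 12 h and 70.3 at 24 h, and like DPE1 it was lower at 24 h than at 2 h. PWD and DPE1 themselves had r = 0.92, and r = 0.28 for deviations from the group means.

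The synthesis genes had looser companions, in whose courses mature leaves stood highest. For SBE2.2 they were AT1G51110 (r = 0.93), AT2G39710 (r = 0.92) and AT3G27570 (r = 0.88). AT1G51110 averaged 254 in mature leaves, against 131 in developing leaves at 24 h. For APL3 they were AT1G64370 (r = 0.92), BCAT4, an aminotransferase of methionine chain elongation (r = 0.92), and PMEAMT, a phosphoethanolamine methyltransferase (r = 0.91). AT1G64370 averaged 802 in mature leaves, against 80.5 in developing leaves at 96 h and 21.2 at 24 h. SBE2.2 and APL3 had r = 0.77 with each other, and r = -0.09 for deviations from the group means.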

How the data were processed

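The deposited values are linear intensity signals; per the submitters' processing notes, MAS5 was among the tools, with no version stated. Once 2% is cut from both tails, every column averages 100, as a global scaling gives; array medians were 39.7 to 47.4. No detection call was used. Of 22810 probe sets, 64 were controls, 13513 had 1 gene, 503 had several and 8794, controls included, were unlisted; names were updated through gene identifiers with a table of assembly TAIR10.1 (13436 matched), and no coordinates or sequences were taken from it. Values were transformed as log2(value + 16). Probe sets above the 40th percentile of their array on at least 2 arrays were tested (16154). The fit, in limma 3.58.1 under R 4.3.3 (lmFit, then eBayes with trend), had a mean for each of the 7 groups and used all 26 arrays, with all 21 pairs of groups as contrasts and an F test over 6 times; the code was tested on simulated data. Precision is limited by how many arrays there are. The members, the lists and the arrays left out were chosen with earlier results of these data known. Named genes are the members, the genes of a starch list and the 3 probe sets most like each member. Alternatives were other pseudocounts (1 and 64), no filter, quantile normalization, median centring, fitting only the groups compared, array weights, a replicate block, and leaving out arrays. The labels do not say that replicate numbers pair samples, and the fit has no block.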

Additional observations from a re-analysis of the deposited data

Results flagged for a closer look

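SBE2.2 on developing 48 h replicate 1 read 110.2, far from the other 48 h arrays at 212 to 225. The gap to the nearest was 0.888 of the whole range of the group, above the critical value of 0.829 for 4 samples. Of 24 groups examined (4 genes at 6 times) this was the 1 so marked, and chance marks about 1 group in 20. The same array has a high cre spike-in signal of 4858 and a GAPDH 3'/5' ratio of 2.11, the highest of all arrays (median 1.17); their part in the low value was not tested.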

How the results depend on the processing

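Of 40 results on the 4 genes (9 comparisons and the F test each), 26 kept their direction and side of the threshold under all alternatives, namely 9 other settings and the removal of each of 26 arrays; every reversal was of a change near 0 that was not called. Log2 changes follow. At 12 h versus 4 h, APL3 became called at -0.32 with quantile normalization, -0.33 with median centring and -0.28 with array weights; SBE2.2 became called at -0.46 with quantile normalization, -0.41 with only the groups compared, -0.37 with array weights and -0.41 without the 2 high spike-in arrays; and DPE1 became called at 0.24 with array weights. Array weights also gave a call for SBE2.2 at 24 h versus 12 h (0.40) and for PWD in mature leaves (-0.25), and turned APL3 at 48 h versus 24 h to 0.012. SBE2.2 at 12 h versus 2 h lost its call with no filter (-0.50). At 96 h versus 48 h PWD turned to 0.049 with median centring, and DPE1 to 0.059 with quantile normalization and 0.059 with median centring. The cause of these moves was not tested.

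With 1 array left out, APL3 ranged from -0.33 to -0.24 at 12 h versus 4 h (called without 24 h replicate 2), from -0.47 to -0.34 at 12 h versus 2 h and from -0.13 to 0.051 at 48 h versus 24 h. SBE2.2 ranged from -0.52 to -0.35 at 12 h versus 4 h (called without 48 h replicate 1 or 12 h replicate 2), from -0.60 to -0.43 at 12 h versus 2 h, from -0.047 to 0.30 at 48 h versus 24 h and from 0.36 to 0.63 at 96 h versus 24 h, where it was called without 48 h replicate 1, 96 h replicate 2 or 24 h replicate 4. The range of SBE2.2 means over times was 0.65 to 0.82, with the F test's call lost without 12 h replicate 1 or 3 or 96 h replicate 1 or 3. PWD ranged from -0.10 to 0.0043 at 24 h versus 2 h, from -0.084 to 0.049 at 96 h versus 48 h and from -0.27 to -0.24 in mature leaves, where it was called without 4 h replicate 1. DPE1 ranged from -0.071 to 0.039 at 96 h versus 48 h. Deviations of same-numbered developing arrays correlated at -0.17 to 0.52. In no pair of times were all 4 over 0.1, but at 4 h with 2 h and at 12 h with 4 h 3 of 4 were, and there all 4 arrays correlated best with their own number, a hint of pairing from the data and not from the design. The replicate block left all 40 on their side of the threshold, with APL3 in mature leaves at 1.54.

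Over all probe sets, array weights moved the 330 calls at 4 h versus 2 h to 565, the 571 at 96 h versus 48 h to 975 and the 0 at 48 h versus 24 h to 500. Fitting only the groups compared gave 931 in place of 1487 at 24 h versus 2 h, 202 in place of 571 at 96 h versus 48 h and 1565 in place of 2419 at 96 h versus 24 h. At 48 h versus 24 h the block gave 19, the removal of the 2 arrays 15, a pseudocount of 64 gave 3, and single removals gave up to 83 (without 24 h replicate 1). At 96 h versus 48 h the removal of the 2 arrays gave 380 and single removals 197 (96 h replicate 1) to 861 (96 h replicate 2), and at 96 h versus 24 h removal of 96 h replicate 1 gave 1600.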
